A study of Bos grunniens with 36 samples.

Results

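Mammary biopsies of 4 female yaks (Bos grunniens) taken 30 days after calving (day +30) were compared with biopsies of the same 4 animals taken 30 days before it (day -30). The comparison uses the 8 arrays, of 36 in the series, whose sample titles carry these days in the authors' table of normalized values, with each animal identified by its number (yak 1 to 4). The series follows the 4 animals through 9 days from day -30 to day +240, and no drug, diet or genotype separates the samples. At each visit about a gram of parenchyma was cut by a veterinarian from the left or the right rear gland of the udder in turn and cleaned of fat and connective tissue. The side of each biopsy is not recorded array by array, and the labels give neither the age of the animals nor the number of their earlier calvings. Each biopsy was hybridised alone, with the Cy3 dye, to a single-colour oligonucleotide array designed for cattle, so that every probe is a cattle sequence read with yak RNA.

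In late pregnancy the secretory alveoli of the udder are still being built. Epithelial cells divide, progesterone, oestrogen and Wnt signals drive branching and alveolar growth, and little milk is made. After calving the alveoli secrete: caseins and whey proteins are synthesised under prolactin and STAT5, fatty acids are taken up or made and packed into milk fat globules, lactose is assembled from glucose, and calcium is pumped into the milk. Biopsies mix epithelium, myoepithelium, fat, vessels and leukocytes, so that fewer cells of a type and less RNA per cell cannot be told apart in these data.

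Values are log2 signals relative to the 75th percentile of each array, which sits at 0, so that a value of 2.49 lies 2.49 log2 units above that percentile. A difference is the fitted day +30 mean less the day -30 mean, given with its standard error (SE, n = 4 yaks at each day). It comes from a limma model with all 36 arrays, 9 days and yak as a random block, in which p-values were adjusted over 20110 genes or unnamed transcripts by the Benjamini-Hochberg method. A gene is said to rise or fall at an adjusted p under 0.05. The SE and the p-values rest on the spread of the 4 animals within a day, pooled over all 9 days and not only the 2 compared.

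The days of the arrays are recorded in 2 places, in the table and with the scanner files, and these disagree. Each of the 36 columns of the table equals 1 scanner file less a constant, to within 0.001 log2 units for all probes with an unmarked spot in that file, but in 0 of 36 is that file deposited under the same sample, and the day is the same in both records for 9 columns. For 3 of the 4 columns of day -30 and 3 of the 4 of day +30 the scanner files' record gives another day. The table's titles were used throughout. Under them every day lies on 1 slide of its own and every yak at 1 position on the slide, so that day and slide cannot be told apart, nor animal and position. With the scanner files' days instead, 3896 genes passed the test, 861 of them in common with the table's record and in the same direction. Array brightness also differed between the days. The 75th percentile of the raw-scale intensity was 4854 to 5752 on the day -30 arrays, and 2172, 4447, 5698 and 1402 on the day +30 arrays of yaks 1 to 4. With brightness as a covariate none of the 64 named genes that passed changed sign, while 19 of those that did not pass did, among them 3 caseins, LALBA, PAEP, BTN1A1, SCD and B4GALT1. The day +30 array of yak 3 stands apart from the other day +30 arrays in genes of milk synthesis. For the named genes and the lists, calls it decides and medians it moves by over 1.5 times are given with and without it.

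Of the 20110 genes, 1282 (6.37%) differed between the days. More fell than rose: 856 (4.26%) were lower at day +30 and 426 (2.12%) higher, with the median over all genes at -0.05. Of the 1282, 1263 moved in 1 direction in 4 of 4 yaks, an agreement that the call itself favours because it rests on the same values. The day +30 arrays lay wholly above the day -30 arrays for 1069 genes (5.32%) and wholly below for 1982 (9.86%). Without the day +30 array of yak 3, 365 genes (1.82%) rose and 531 (2.64%) fell, in all 896 (4.46%), of which 739 were also called, in the same direction, with it. Leaving out any 1 of the 4 animals altogether left between 42 and 164 rises and between 68 and 366 falls, the fewest without yak 3.

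The 12 largest rises among genes with a symbol ran from 4.68 to 7.44 log2 units, and the day +30 values of yak 3 were often the lowest or the highest among them. LPO encodes lactoperoxidase, an antimicrobial enzyme of milk. Its day -30 values were -5.49, -5.36, -4.65 and -6.31 in yaks 1 to 4, and its day +30 values 3.52, 2.94, -2.43 and 3.91. All day +30 arrays lay above all day -30 arrays, but yak 3 was far below the other 3 animals at day +30. The difference was 7.44 ± 1.98 (SE, adjusted p = 0.0241), or 173-fold, and 9.03 without the day +30 array of yak 3. CDH16, a cadherin known from kidney epithelium, measured -4.28, -6.08, -5.95 and -6.01 before calving and -0.66, -0.72, 3.35 and -0.14 after it. Here yak 3 was the highest animal at day +30, and the days did not overlap. CDH16 rose by 6.04 ± 1.18 (adjusted p = 0.00316), and by 5.10 without that array.

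RRAD, a Ras-related small GTPase, was the steadiest of the large rises. It went from -1.61, -2.93, -1.65 and -2.36 to 3.07, 2.82, 3.58 and 3.87 in yaks 1 to 4. All 4 animals at day +30 lay close together and well above day -30, with a difference of 5.48 ± 0.66 (adjusted p = 1.01e-05). The other probe of RRAD differed by 2.78. The probes of CDH16 and RRAD lie 12.9 kb apart on chromosome 18 of the cattle assembly UMD 3.1, with no other symbol of the array between them. ALOX15, a lipoxygenase of polyunsaturated fatty acids, rose by 5.63 ± 1.30 (adjusted p = 0.0108), with yak 3 at -1.93 at day +30 and the other animals between 0.87 and 3.57. CRISP3, a cysteine-rich protein of exocrine secretions, rose by 5.57 ± 1.64 (adjusted p = 0.0384). GALNTL2, of the family that starts mucin-type sugar chains, rose by 5.50 ± 0.94 (adjusted p = 0.000993), and its other probe differed by 2.06. GPR110, an adhesion G protein-coupled receptor, rose by 4.72 ± 1.21 (adjusted p = 0.0196). These 4 genes showed no overlap between the days.

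Chemokines and calgranulins stood among the same leading rises. CXCL2, which attracts neutrophils, measured -3.78, -3.54, -3.81 and -3.68 before calving, a very narrow band. At day +30 it measured -0.22, 0.04, 2.51 and 2.77, with yaks 3 and 4 above yaks 1 and 2. It rose by 4.98 ± 0.94 (adjusted p = 0.00234). CXCL3, its close relative 10.2 kb away on chromosome 6, rose by 4.74 ± 0.77 (adjusted p = 0.00071), and whether the probes of such similar genes read 1 transcript was not tested. S100A8, a calgranulin of neutrophils, rose by 4.75 ± 1.11 (adjusted p = 0.0112). MMP12, the macrophage elastase, is the only one of the 12 leading rises whose days overlapped. Before calving 1 of its 4 spots was well above background and after it 4 of 4, and its difference of 4.70 ± 1.47 (adjusted p = 0.0499) became 4.12 (adjusted p = 0.122) without the day +30 array of yak 3. BDH1, which interconverts the ketone bodies, rose by 4.68 ± 1.33 (adjusted p = 0.0326). CAPN14, at 4.66, was the next rise with a symbol below the 12 that were named by size.

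The standard errors of the 12 largest falls among genes with a symbol ran from 0.33 to 1.09, against 0.66 to 1.98 for the 12 largest rises. RSPO1, a secreted amplifier of Wnt signalling that progesterone induces in mammary epithelium, measured 2.49, 2.38, 1.80 and 2.18 at day -30. In the same animals it measured -2.76, -4.12, -5.14 and -5.28 at day +30. Every animal was high before calving and low after it, and RSPO1 fell by 6.54 ± 0.71 (adjusted p = 1.51e-06), or 92.9-fold. PNMT, which makes adrenaline from noradrenaline, went from 2.91, 1.78, 2.13 and 2.26 to -2.78, -3.28, -3.58 and -2.74. It fell by 5.36 ± 0.89 (adjusted p = 0.000733), with no overlap and a narrow spread at both days. DUSP9, a phosphatase that inactivates MAP kinases, fell by 5.31 ± 0.47 (adjusted p = 2.5e-08) and was well above background on 3 of 4 arrays at day +30. CHST8, a sulfotransferase of N-acetylgalactosamine, fell by 5.07 ± 1.09 (adjusted p = 0.00631). It was above background on only 1 of 4 arrays at day +30, so that its 33.5-fold difference rests on values near the detection limit there.

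CHRDL2, a chordin-like protein that binds bone morphogenetic proteins, went from 1.08, -0.31, 1.09 and -0.10 to -4.13, -4.54, -4.92 and -4.20. All 4 animals fell to nearly the same level, a fall of 4.89 ± 0.49 (adjusted p = 3.93e-07). DNALI1, a light intermediate chain of axonemal dynein, measured 0.14, 1.19, 0.25 and -0.35 before and -4.29, -3.28, -3.99 and -4.21 after calving. It had the smallest standard error of the 12 leading falls, with a difference of -4.25 ± 0.33 (adjusted p = 1.69e-09). Its probe lies 43.3 kb from that of RSPO1 on chromosome 3, with 1 other symbol of the array (GNL2) between them. SERPINA11 of the serpin family fell by 4.74 ± 1.00 (adjusted p = 0.00579), and TRIM9, a ubiquitin ligase known from neurons, by 4.23 ± 0.87 (adjusted p = 0.00458). GPC4, a heparan sulfate proteoglycan, fell by 3.51 ± 0.51 (adjusted p = 0.000158). ACTC1, cardiac actin, fell by 3.51 ± 0.82 (adjusted p = 0.0116), with yak 3 at -7.92 and the other 3 animals between -5.53 and -5.46 at day +30. It was well above background on 3 of 4 arrays at that day. ITIH4, a heavy chain of the inter-alpha-trypsin inhibitors, fell by 3.02 ± 0.55 (adjusted p = 0.00163). Its other probe differed by 0.10 in the opposite direction. GDF10, of the transforming growth factor beta family, fell by 3.01 ± 0.74 (adjusted p = 0.015), and by 2.53 (adjusted p = 0.0576) without the day +30 array of yak 3. CEP72, at -2.98, was the next fall with a symbol below them.

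**Figure D1:**
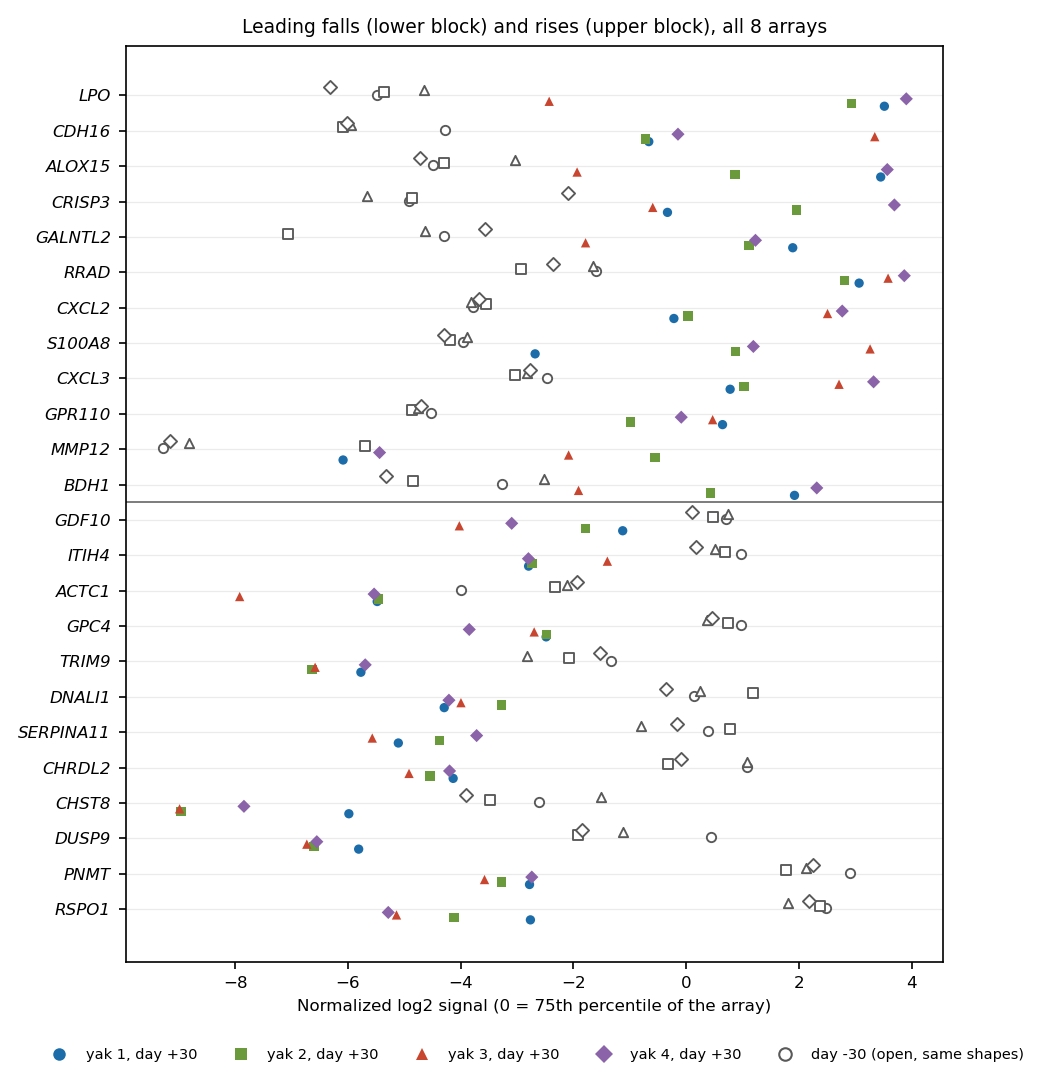
Normalized log2 signal (x axis) of the 12 largest rises and 12 largest falls (y axis) on each of the 8 arrays; open symbols are day -30, filled symbols day +30, and the symbol's shape gives the yak. RSPO1 lies between 1.80 and 2.49 at day -30 and between -5.28 and -2.76 at day +30, while LPO at day +30 shows yak 3 at -2.43, below the other 3 animals.

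The probe sequences show what was hybridised for 3 of these falls and for CDC20, a cell division gene described further on. CHRDL2 lies at chr15:54794191-54795175 (UMD 3.1, minus strand) and DNALI1 at chr3:108918186-108920147 (minus strand). Both spans, 985 and 1962 bases, exceed the 60 bases of the probe, so these probes cross an exon junction and read spliced RNA. CHST8 lies at chr18:44378831-44378890 (plus strand) and ends in a stop codon of its reading frame, in capitals. CDC20 lies at chr3:103238636-103238695 (minus strand). The positions are those of the array's annotation, and the sequences are written from 5′ to 3′ as the files give them.
CHRDL2: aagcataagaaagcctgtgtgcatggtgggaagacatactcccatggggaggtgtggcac
DNALI1: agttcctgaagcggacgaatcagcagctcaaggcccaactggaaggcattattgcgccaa
CHST8: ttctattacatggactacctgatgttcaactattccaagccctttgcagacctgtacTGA
CDC20: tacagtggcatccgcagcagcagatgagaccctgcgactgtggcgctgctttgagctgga

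None of the 4 caseins, the micelle proteins of milk, passed the test. Their values were above day -30 in 3 animals and below it in yak 3. CSN3, kappa-casein, which coats the micelle, measured 5.45, 5.64, 5.93 and 4.92 at day -30 and 7.53, 6.28, 5.43 and 8.22 at day +30. Yaks 1, 2 and 4 were higher after calving and yak 3 lower, so the days overlapped, and the difference was 1.38 ± 0.80 (adjusted p = 0.306). The differences of CSN1S2, CSN1S1 and CSN2 were 3.35 ± 1.45, 1.62 ± 1.39 and 1.05 ± 1.48 (adjusted p = 0.159, 0.52 and 0.721). The median over the 4 caseins was 1.99, 1.56, -0.96 and 3.62 in yaks 1 to 4. Leaving out the day +30 array of yak 3 gave a fitted median of 2.14, with 0 of 4 past the test. With brightness as a covariate the differences of CSN1S1, CSN2 and CSN3 turned negative. Spots of the caseins were marked as out of line by the scanner software on 1 to 3 of the 8 arrays for each gene, and their values were kept in the table.

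Whey proteins divided in the same way. LALBA, alpha-lactalbumin, the partner that turns galactosyltransferase to lactose synthesis, measured 3.68, -0.31, 3.62 and 3.08 before calving. After it LALBA measured 6.84, 5.42, 2.19 and 7.35. Again yak 3 alone was lower, and the difference of 2.93 ± 1.90 did not pass (adjusted p = 0.368). PAEP, the beta-lactoglobulin gene, differed by 0.60 ± 1.09 (adjusted p = 0.79). Among the 10 whey and antimicrobial proteins 3 rose (LPO, CRISP3 and CD14) and none fell, with a median of 1.49, against 2.12% rising and a median of -0.05 over all genes. CD14, a lipopolysaccharide receptor that is also shed into milk, went from between -0.39 and 0.15 to between 2.03 and 3.44 and rose by 2.93 ± 0.51 (adjusted p = 0.00122). LTF, lactoferrin, was higher at day +30 on every array, from 4.07 to 4.92 against 2.33 to 3.82, but its difference of 1.53 ± 0.84 did not pass (adjusted p = 0.278). The 5 probes of LTF all differed in this direction, by 1.53 to 4.00.

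Among the genes of milk fat, calls came from the uptake list. Of 17 genes of fatty acid uptake and activation 2 rose and none fell, against 2.12% of all genes rising. Among 19 of synthesis and desaturation none passed, and among 19 of triacylglycerol synthesis and the fat globule none passed, against 6.37% of all genes. The medians of these lists were 1.13, 0.39 and 0.65. Without the day +30 array of yak 3 the triacylglycerol median was 1.06 with 1 rise, and 1 gene of the synthesis list rose. In yak 3, 10 of 17, 6 of 19 and 6 of 19 genes of these lists were above 0, against 12 to 15, 14 to 17 and 15 to 16 in the other animals. LPL, lipoprotein lipase, which frees fatty acids from blood lipoproteins, lay between -0.19 and -0.05 in all 4 animals at day -30. At day +30 it measured 3.94, 2.92, -1.36 and 4.66. The difference was 2.69 ± 1.38 (adjusted p = 0.241), and 4.06 (adjusted p = 0.0777) without the day +30 array of yak 3. FASN, fatty acid synthase, measured 3.97, 3.29, 3.87 and 3.61 before and 4.75, 3.37, 1.27 and 5.02 after calving. Its difference of -0.08 ± 0.70 (adjusted p = 0.957) became 0.73 (adjusted p = 0.531) without that array. BTN1A1, butyrophilin of the fat globule membrane, was near 5 in yaks 1 and 4 at day +30 (5.14 and 5.25), 4.05 in yak 2 and -0.51 in yak 3. Its difference was 0.82 ± 2.22 (adjusted p = 0.864).

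The fat genes that rose did so in yak 3 too, and over all genes 414 of the 426 rises went up in all 4 animals. The call itself favours such agreement. VLDLR, a lipoprotein receptor, measured -0.43, -0.94, -0.74 and -0.47 at day -30 and 1.03, 0.86, 1.33 and 2.57 at day +30, and rose by 2.09 ± 0.59 (adjusted p = 0.0306). ACSS1, a mitochondrial acetyl-CoA synthetase, rose by 1.51 ± 0.42 (adjusted p = 0.0303). Of the lipogenic regulators 4 of 12 rose and none fell, with a median of 0.51, against 2.12% of all genes rising. PPARGC1A, a coactivator of PPAR receptors, measured -4.92, -3.51, -4.57 and -5.26 before and -1.64, -2.42, -2.88 and -0.74 after calving. It was higher in every animal without overlap, by 2.64 ± 0.53 (adjusted p = 0.00387). PPARA, a fatty acid receptor, rose by 1.01 ± 0.25 (adjusted p = 0.014), and INSIG2, which holds back SREBP activation, by 0.91 ± 0.23 (adjusted p = 0.0179). NR1H3, the sterol receptor LXR alpha, rose by 0.55 ± 0.17 (adjusted p = 0.0478), and its adjusted p was 0.105 without the day +30 array of yak 3. SREBF1, the SREBP gene, differed by -0.39 ± 0.54 (adjusted p = 0.711). INSIG1 differed by 1.56 ± 0.66 (adjusted p = 0.15), and by 2.40 (adjusted p = 0.024) without that array.

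**Figure D2:**
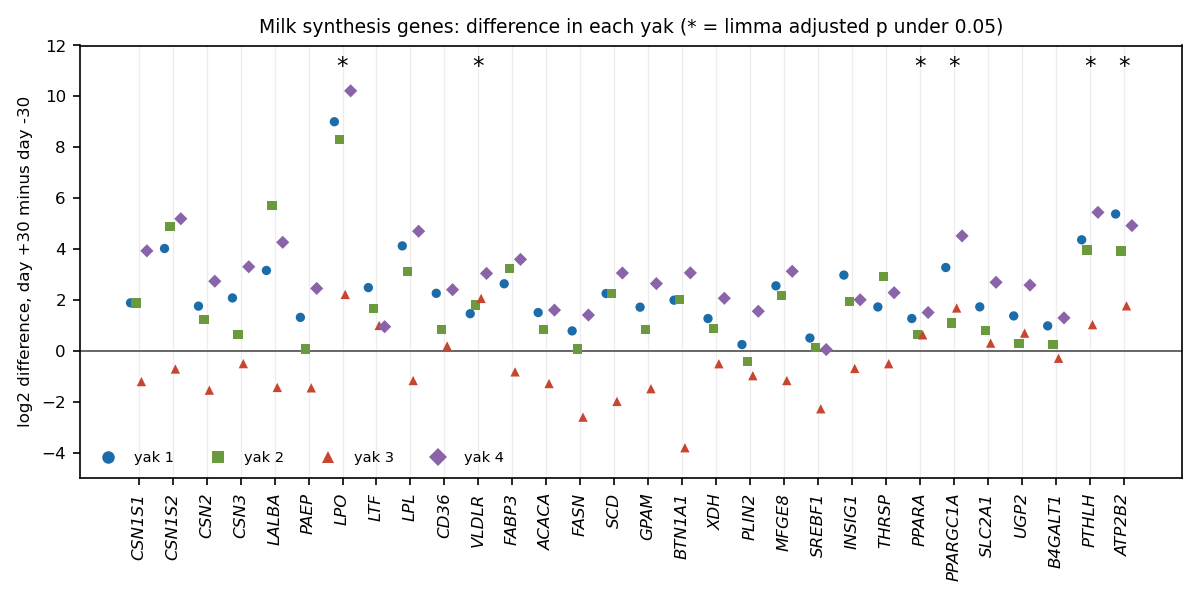
Difference between day +30 and day -30 (log2, y axis) in each yak for 30 genes of milk proteins, fat, lactose and calcium (x axis), with symbols by yak and a star over genes that passed the limma test. Yak 3 lies below 0 for the 4 caseins, LALBA and BTN1A1 while the other 3 animals lie above it, and the starred PPARA, PPARGC1A, PTHLH and ATP2B2 are above 0 in all 4.

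Cholesterol synthesis had 1 call among 22 genes, near the 6.37% called over all genes. TM7SF2, a sterol reductase late in the pathway, rose from between -4.71 and -3.60 to between -2.01 and -1.07, by 2.59 ± 0.62 (adjusted p = 0.0129). The list's median was 0.72, and by animal 1.16, 0.55, -0.35 and 1.53. Without the day +30 array of yak 3, 5 of 22 rose and the median was 1.04.

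Of 14 genes for glucose uptake and lactose synthesis 2 rose (2.12% of all genes did), PGM3, a phosphoglucomutase of amino sugars, and GALK2, a galactose and N-acetylgalactosamine kinase. PGM3 rose by 1.01 ± 0.25 (adjusted p = 0.0174) and GALK2 by 0.86 ± 0.24 (adjusted p = 0.0314), the latter to adjusted p = 0.0932 without the day +30 array of yak 3. These are not the enzymes that build lactose from glucose. B4GALT1, the galactosyltransferase of lactose synthase, differed by 0.56 ± 0.54 (adjusted p = 0.576). SLC2A1, the main glucose transporter of the secretory cell, was higher at day +30 on every array (1.18 to 2.72 against -0.05 to 0.99), but its difference of 1.39 ± 0.52 did not pass (adjusted p = 0.103). UGP2, which makes UDP-glucose, differed by 1.24 ± 0.55 (adjusted p = 0.171) with no overlap of the days.

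Calcium handling held 2 rises among 13 genes, against 2.12% over all genes. Its median was 1.21, and 1.94 without the day +30 array of yak 3. PTHLH, the parathyroid hormone-related peptide that the lactating gland sends to bone, measured -0.24, -0.95, -0.62 and -1.33 before calving. After it the values were 4.13, 3.02, 0.41 and 4.11, all above day -30 and lowest in yak 3. The rise was 3.70 ± 0.91 (adjusted p = 0.015). ATP2B2, the pump that moves calcium across the apical membrane into milk, rose by 4.00 ± 0.88 (adjusted p = 0.00735) from -7.46, -6.14, -6.81 and -5.22 to -2.08, -2.21, -5.04 and -0.30. Before calving 2 of its 4 spots were well above background. Of its 3 probes 2 had a higher mean at day +30, and the third differed by -0.06.

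Lists of protein production and energy held 5 rises in all, where 2.12% of all genes rose. All 25 genes of the unfolded protein response and secretory entry had differences above 0, but 2 rose: DNAJC3, a chaperone partner, by 1.66 ± 0.45 (adjusted p = 0.0251) and SRP54, of the signal recognition particle, by 1.17 ± 0.37 (adjusted p = 0.0499). The list's median was 0.37, and 0.57 without the day +30 array of yak 3. By animal, 24, 17, 9 and 25 of its genes were above 0 in yaks 1 to 4. None of 20 aminoacyl tRNA synthetases, 15 amino acid transporters or 26 genes of oxidative phosphorylation and the citrate cycle passed, with medians of 0.20, 0.41 and 0.16, which became 0.37, 0.24 and 0.31 without that array. Of 14 ketone and acetate genes 3 rose, BDH1, ACSS1 and ACSS3. The median of this list was 0.57, and 0.24 with 2 rises without that array. ACSS3, a mitochondrial acyl-CoA synthetase, rose by 1.31 ± 0.39 (adjusted p = 0.043), with adjusted p = 0.0741 without the day +30 array of yak 3.

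**Figure D3:**
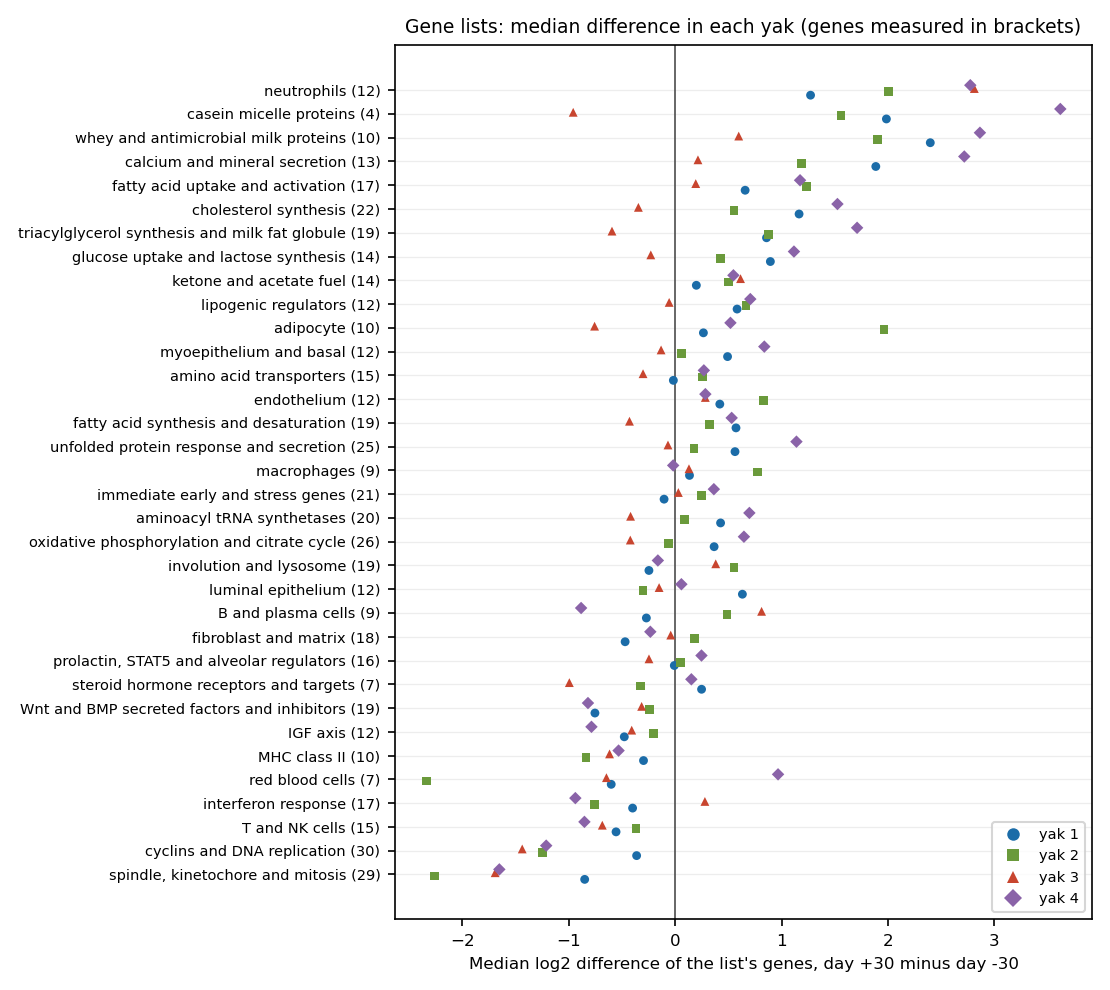
Median difference between day +30 and day -30 (log2, x axis) over the genes of each of 34 lists (y axis), 1 symbol per yak, with the number of genes measured in brackets. The mitosis list is below 0 in all 4 animals (-0.85, -2.26, -1.69 and -1.65), and the casein median is below 0 only in yak 3.

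Genes of cell division were lower after calving. Of 29 genes of the spindle, kinetochore and mitosis 9 fell and none rose, with a median of -1.52, and of 30 cyclins and replication genes 12 fell and none rose, with a median of -1.19. Over all 20110 genes 4.26% fell and the median was -0.05. KIF20A, a kinesin of cytokinesis, measured -1.47, -1.78, -1.74 and -2.58 at day -30 and -3.94, -4.69, -4.17 and -5.88 at day +30. It was lower in every animal with no overlap, and fell by 2.78 ± 0.56 (adjusted p = 0.00411). At day +30 KIF20A was well above background on 3 of 4 arrays. CDC20, which activates the anaphase-promoting complex, measured 0.86, 0.59, 0.59 and -0.66 before and -0.68, -2.37, -1.83 and -2.64 after calving, so that yak 4 at day -30 and yak 1 at day +30 nearly met. CDC20 fell by 2.22 ± 0.50 (adjusted p = 0.00865). KIF23, another cytokinesis kinesin, fell by 2.19 ± 0.51 (adjusted p = 0.0111), and TPX2, a spindle assembly factor, by 1.37 ± 0.32 (adjusted p = 0.0115).

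In the replication list ORC1, of the origin recognition complex, fell by 2.73 ± 0.66 (adjusted p = 0.0137) and was well above background on 3 of 4 arrays at day +30. UHRF1, which carries DNA methylation through replication, fell by 2.28 ± 0.53 (adjusted p = 0.0111). The helicase subunits MCM4 and MCM7 each fell by 1.46 (SE 0.35 and 0.24, adjusted p = 0.0119 and 0.000733). TK1, thymidine kinase, was the 1 member above 0, at 0.01. By animal the median of the mitosis list was -0.85, -2.26, -1.69 and -1.65, smallest in yak 1, and that of the replication list -0.36, -1.24, -1.44 and -1.21. Without the day +30 array of yak 3, 7 of the mitosis list and 6 of the replication list fell, with medians of -1.65 and -1.09. MKI67 and TOP2A, common markers of dividing cells, were not among the genes measured under these symbols. MYC, a driver of growth, fell by 1.36 ± 0.27 (adjusted p = 0.00371), from between 2.12 and 2.57 to between 0.85 and 1.11.

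**Figure D4:**
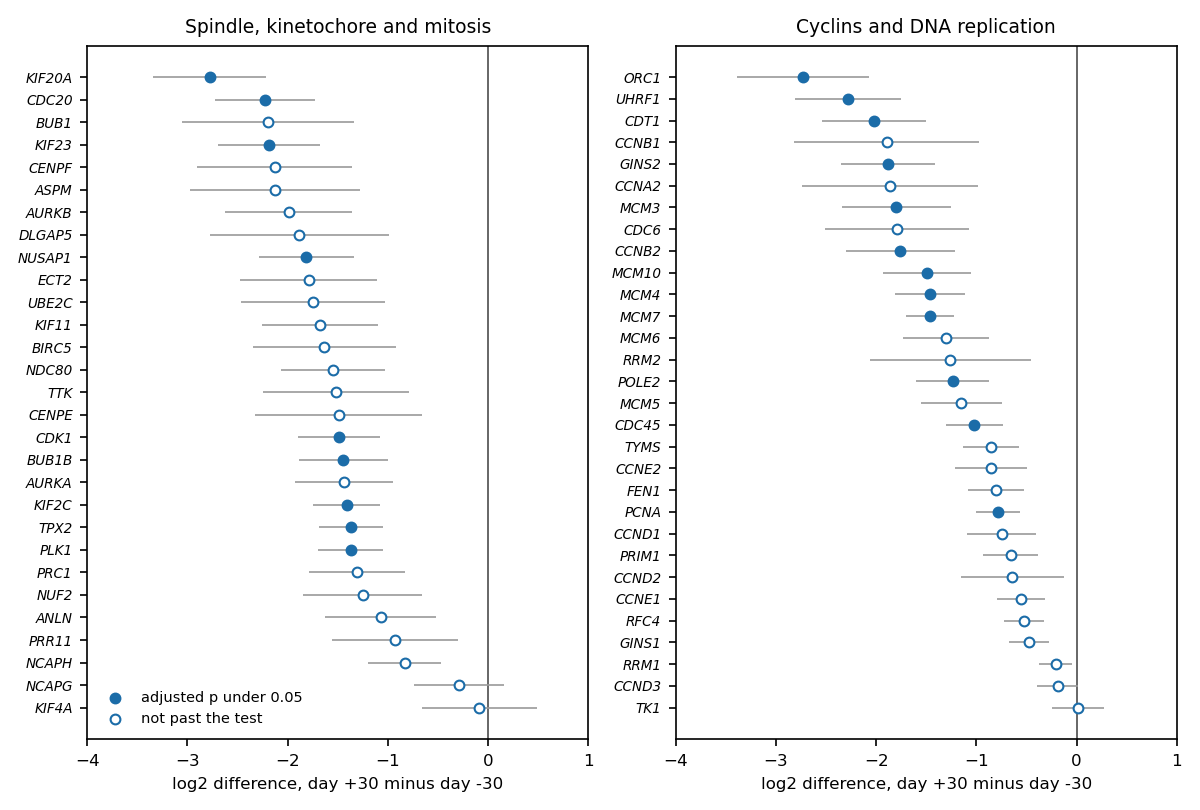
Fitted difference between day +30 and day -30 (log2, x axis; bars are the SE) for the 29 mitosis genes and the 30 cyclin and replication genes measured (y axis), filled where the limma adjusted p is under 0.05. KIF20A at -2.78 and ORC1 at -2.73 lie farthest below 0, and 9 and 12 members are filled.

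The other pregnancy-associated signals were mixed. Of 19 Wnt and BMP genes 5 fell and none rose: RSPO1, CHRDL2, WIF1, AXIN2 and GREM1. Over all genes 4.26% fell. The list's median was -0.24, and -0.38 with 4 falls without the day +30 array of yak 3. AXIN2, a feedback inhibitor that Wnt signalling itself induces, fell by 1.70 ± 0.29 (adjusted p = 0.000869), from between -2.55 and -2.06 to between -4.24 and -3.55. WIF1, which binds and blocks Wnt proteins, fell by 2.24 ± 0.62 (adjusted p = 0.0277), but its days overlapped and its adjusted p was 0.08 without that array. GREM1, a BMP antagonist, fell by 1.01 ± 0.28 (adjusted p = 0.0293). Of 7 steroid receptor and target genes 2 fell, RSPO1 and GREB1, an oestrogen-induced gene. GREB1 fell by 0.96 ± 0.26 (adjusted p = 0.0246, and 0.0577 without that array). The receptors themselves gave small differences, 0.35 ± 0.44 for ESR1 and 0.35 ± 0.40 for PGR (adjusted p = 0.679 and 0.647). GREB1 and ESR1 had low signals, with means of -6.16 and -5.76 at day +30. Each was well above background on 3 of 4 arrays there. Of the 3 probes of ESR1 1 was higher at day +30, and the lowest differed by -0.51. None of 16 prolactin and STAT5 genes and none of 12 IGF genes passed, with medians of -0.12 and -0.38, the former -0.017 without that array. STAT5A differed by -0.72 ± 0.40 (adjusted p = 0.291), ELF5 by 0.58 ± 0.63 (adjusted p = 0.628) and PRLR by 0.10 ± 0.44 (adjusted p = 0.921).

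Neutrophil genes were higher at day +30. Of 12 measured 5 rose (S100A8, S100A9, S100A12, CXCR2 and CATHL4) and 1 fell, with a median of 2.24, and 8 lay wholly above day -30. Over all genes 2.12% rose, 4.26% fell and 5.32% lay wholly above day -30. S100A8 measured -3.96, -4.19, -3.89 and -4.29 before calving and -2.68, 0.88, 3.27 and 1.19 after it, lowest in yak 1 and highest in yak 3. Its probe lies on chromosome 3 within 28.7 kb of those of S100A12 and S100A9, the other calgranulins. S100A12 rose by 3.59 ± 0.85 (adjusted p = 0.0119) and S100A9 by 3.56 ± 0.98 (adjusted p = 0.0277). CXCR2, the receptor for neutrophil-attracting chemokines, measured -5.37, -3.16, 0.65 and -2.76 at day +30, highest in yak 3. It rose by 3.81 ± 1.04 (adjusted p = 0.0273), and differed by 2.72 (adjusted p = 0.113) without that array. CATHL4, an antimicrobial cathelicidin, rose by 2.80 ± 0.77 (adjusted p = 0.0276), with adjusted p = 0.0647 without it. In all 3 of the 12 rose and 1 fell without that array, with the median again at 2.24.

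The member that went the other way was PGLYRP1, a peptidoglycan-binding protein of neutrophil granules. It fell by 2.54 ± 0.39 (adjusted p = 0.000248), from 1.32, 0.76, 1.22 and 0.67 to -1.004, -1.38, -1.58 and -2.24, with no overlap. MPO and ELANE, granule enzymes made in the bone marrow, differed by -0.13 and 1.38 (adjusted p = 0.876 and 0.076). The mean log2 level of the 12 neutrophil genes ranged from -3.54 to -3.15 at day -30 and from -2.20 to -0.60 at day +30, highest in yak 3. The part of neutrophils in the other differences was not tested.

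Markers of the other cell types gave 1 call, in the macrophage list, where 6.37% of all genes were called. None of 12 luminal, 12 myoepithelial, 10 adipocyte, 18 fibroblast, 12 endothelial, 15 T and NK cell, 9 B cell or 7 red cell genes passed. The luminal median was 0.08, and 0.29 without the day +30 array of yak 3. The adipocyte, fibroblast and B cell medians were 0.48, -0.066 and 0.061. Without that array they were 0.84, -0.17 and -0.14, and 1 adipocyte gene rose. KRT18, a luminal keratin, lay between 2.17 and 3.12 at day -30 and between 1.42 and 2.86 at day +30, well above background on all 8 arrays, as did the myoepithelial KRT14 and ACTA2. KRT14 differed by -0.64 ± 0.46 and ACTA2 by 0.32 ± 0.28 (adjusted p = 0.429 and 0.531). The medians of yaks 1 to 4 were 0.27, 1.96, -0.76 and 0.52 for adipocyte genes and -0.60, -2.33, -0.65 and 0.97 for red cell genes. ADIPOQ, adiponectin, was at 2.22 in yak 2 and between -3.61 and -0.85 in the others at day +30. All 15 T and NK cell genes had differences below 0, with a median of -0.60. Of these 6 lay wholly below day -30, against 9.86% of all genes, and 0 wholly above. By animal the T and NK cell median was -0.56, -0.37, -0.68 and -0.85. Collagens COL1A1 and COL3A1 differed by -0.07 ± 0.51 and -0.11 ± 0.54 (adjusted p = 0.953 and 0.927), and PECAM1 of endothelium by 0.65 ± 0.22 (adjusted p = 0.0727). Of 9 macrophage genes 1 rose, MARCO, a scavenger receptor, by 3.71 ± 0.78 (adjusted p = 0.00545), while the macrophage receptor CSF1R was at 0.03.

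The immune and stress lists held 9 calls, the fall of MYC among them. CIITA, which switches on MHC class II genes, fell by 1.33 ± 0.36 (adjusted p = 0.0241), from between -2.15 and -1.86 to between -3.95 and -3.03. The other 9 class II genes did not pass, but all 10 had differences below 0, with a median of -0.46. Of the 10, 6 lay wholly below day -30, against 9.86% of all genes. ISG20, an exonuclease induced by interferon, rose by 3.26 ± 0.67 (adjusted p = 0.00446), against a median of -0.60 over the 17 interferon genes, of which no other passed. Without the day +30 array of yak 3, 1 interferon gene fell. Of 19 genes of lysosomes and involution 4 rose, against 2.12% of all genes: the cathepsins CTSB (0.65 ± 0.20, adjusted p = 0.0452), CTSD (0.66 ± 0.19, adjusted p = 0.0319) and CTSZ (0.77 ± 0.22, adjusted p = 0.0321), and the death receptor FAS (1.24 ± 0.35, adjusted p = 0.0301). CTSB and FAS had adjusted p of 0.103 and 0.105 without the day +30 array of yak 3. The median of the lysosome and involution list was 0.13, and -0.075 with 2 rises without that array. ATF3, a stress-induced transcription factor, rose by 1.46 ± 0.45 (adjusted p = 0.0482), and DUSP1, an immediate early phosphatase, by 1.17 ± 0.35 (adjusted p = 0.0408). Both missed the threshold without that array, at adjusted p of 0.08 and 0.111, while 1 other gene of the stress list rose.

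The neighbouring days place day +30 in the course of lactation. Against day +15, 3 genes (0.0149%) were higher at day +30 and none lower: OLIG1, KCNH3 and LOC785069. Against day +60, 177 (0.88%) differed, all lower at day +60, and 103 of them were well above background on fewer than 3 of 4 arrays at day +60. The 75th percentile of intensity was between 1278 and 2512 on the day +60 arrays. With normexp background correction 0 genes differed by limma between day +60 and day +30 (3975 at an unadjusted p under 0.05), and with quantile normalization 4 did. Because these comparisons share the day +30 arrays with the main one, their values are given side by side only. RSPO1 differed by -0.54 from day +15 to day +30 and by -0.02 from day +30 to day +60, after -6.54 from day -30. For LPO these differences were -1.89, 2.45 and 7.44, for KIF20A -0.17, -1.68 and -2.78, and for S100A8 1.45, -1.21 and 4.75. Among the genes that rose, 101 had the highest of their 9 day means at day +30, CDH16, CXCL2 and S100A8 among them, and of the 856 that fell 245 had the lowest there. These genes were selected by their day +30 values, so the counts do not test for a peak or trough at that day. CSN3 had its highest mean at day +15.

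**Figure D5:**
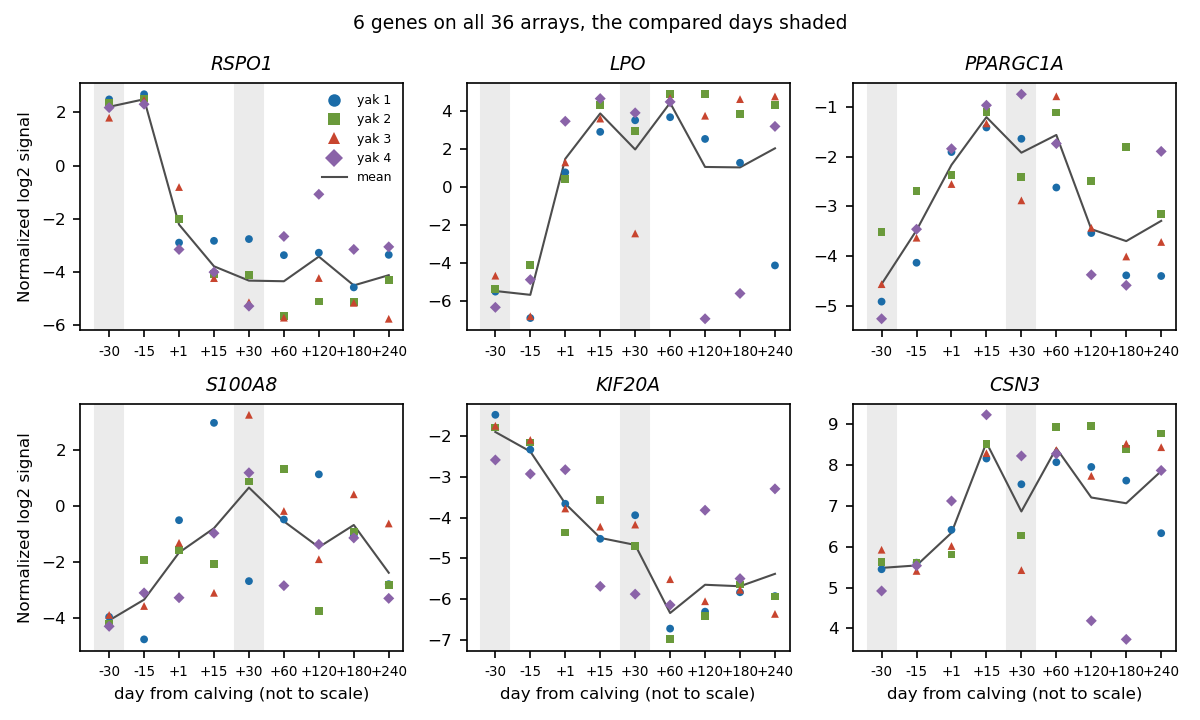
Normalized log2 signal (y axis) of 6 genes in each of the 36 arrays by day from calving (x axis, days evenly spaced), symbols by yak, line at the mean of 4 yaks, with day -30 and day +30 shaded. RSPO1 drops before day +30 and stays low, while LPO and CSN3 show yak 3 at day +30 (-2.43 and 5.43) below the other 3 animals.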

How the data were processed

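The deposited log2 values were scaled by the authors in GeneSpring 12 to the 75th percentile of the array, per the series' design text, which also names JMP Genomics 7 and a mixed model of time and animal. Column medians ran from -1.70 to -1.34. Scanner files by Feature Extraction 10.7.3.1, per the file headers, give spot intensity and quality marks as other values of 0 or 1. The columns were set against them by value to obtain brightness, background marks and positions on UMD 3.1. The table holds 34997 of the array's 43653 probes, and what removed the others is not given in the sources used here. No columns of unknown samples were present.

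From the deposited log2 values, 1 probe stood for each gene (highest mean over 36 columns), with no further filter on low values: 20110 genes, 13425 with a symbol, 11574 of these also in the yak gene table. limma 3.58.1 in R 4.3.3 fitted 9 days with yak as a random block (duplicateCorrelation, correlation 0.0531), two-sided, Benjamini-Hochberg over all genes. The yak numbers pair the samples because the titles name the same animal. Deviations from the day means correlated at 0.156 on average between arrays of the same yak and -0.0523 between others, and between day -30 and day +30 at 0.51, 0.136, 0.0333 and 0.213 for yaks 1 to 4. Simulated data held independent normal noise with 1 spread per gene, without yak, slide or brightness effects or an array that stands apart, unlike the real arrays. On these 20110 genes the fit called 98 of 100 genes changed by 3 log2 units, 29 of 100 changed by 1, and 5 of 19910 unchanged.

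Named genes are the 12 largest rises and falls that have a symbol, passed, went 1 way in 4 yaks and were above background on 3 of 4 arrays of the higher day, 51 genes set by name (49 measured), and up to 4 called members of each of 34 lists with any that went against the rest. CAPN14, CEP72, S100A9, GREM1, TK1, MPO, ELANE, CSF1R, GNL2 and the 3 genes called against day +15 were named after their values were seen. Of the genes set by name, 1 is not reported here. Members and lists were chosen with earlier results of these data known. The number of arrays limits the precision. Alternatives changed the scaling, probe rule, filter, model, days and animals.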

Additional observations from a re-analysis of the deposited data

Results flagged for a closer look

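In 20 of 274 groups of 4 arrays (103 named genes and 34 list means at both days) 1 animal lay far from the other 3, with a gap to the nearest of them beyond the 95% critical value of Dixon's ratio of gap to range, which chance passes in about 1 in 20 groups. At day +30 yak 3 was the animal in 5 of 9: lowest for ACTC1 (-7.92), LPO (-2.43) and the mean of the T and NK cell genes (-1.34), and highest for CDH16 (3.35) and ITIH4 (-1.40). Yak 4 was the animal in the other 4: highest for DNAJC3 (1.92) and lowest for GPC4 (-3.85), KRT14 (1.29) and LTF (4.07). At day -30 the 11 values were spread over the animals. Yak 1 was highest for CATHL4 (-4.37) and CDH16 (-4.28) and lowest for CD36 (2.26). Yak 2 was lowest for LALBA (-0.31) and for the mean of the fatty acid uptake genes (0.33) and highest for MMP12 (-5.70). Yak 3 was highest for ESR1 (-5.84) and for the mean of the cyclin and replication genes (0.26). Yak 4 was highest for LPL (-0.046) and lowest for PAEP (4.59) and for the mean of the luminal genes (2.15).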

How the results depend on the processing

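Of 64 named genes that passed, none changed sign in any of the 16 alternatives, and between 19 and 64 kept their call. For several alternatives the sign could not change. A gene that moved 1 way in 4 yaks keeps its sign when 1 yak is left out. Fits that changed only the block or the model return the same differences. Rises and falls from day -30 (426 and 856) were 713 and 1650 with brightness as a covariate, 781 and 1329 with quantile normalization, 255 and 350 with normexp, and 1880 and 2016 with the scanner files' days, where rises made up 48.3% of the calls against 33.2%. Without the day +30 array of yak 3, an alternative chosen after seeing the data, rises numbered 365 and falls 531. Without 1 yak, rises ranged from 42 to 164 and falls from 68 to 366. With no replicate block there were 309 rises and 664 falls, and the pairing changed no count by over 1.5 times. The 3 genes differing from day +15 became 21, 14, 0 and 0 in the first 4 alternatives, 0 without that array, and 0 to 1 without 1 yak; the 177 differing at day +60 became 838, 4, 0 and 0, 41 with columns centred on the median, 96 without that array, and 6 to 531 without 1 yak. At an unadjusted p under 0.05 the counts of 0 corresponded to 377 to 2504 genes for day +15 and 1072 to 3975 for day +60. The medians of the 34 lists turned sign in 9 lists with brightness as a covariate (caseins -0.40, triacylglycerol -0.089), in 5 with the scanner files' days, in 3 with quantile normalization, in 1 with normexp, in 2 without that array and in 2 without each yak. The 8-array fit covers the main comparison only. No fit with slide as a block was run, since each slide holds 1 day.

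Genes that did not pass turned sign as follows. With brightness as a covariate: ACACA -0.56, B4GALT1 -0.43, BTN1A1 -2.96, COL1A1 0.45, COL3A1 0.38, CSN1S1 -0.73, CSN2 -1.42, CSN3 -0.074, ELF5 -0.63, FABP3 -0.21, GPAM -0.94, KRT18 0.22, LALBA -0.24, PAEP -1.19, PGR -0.051, PLIN2 -1.39, PRLR -0.20, SCD -0.43 and XDH -0.30. With the scanner files' days: COL1A1 0.035, FASN 1.48, KRT18 0.058, PRLR -0.082 and SREBF1 0.13. With the mean of all probes: ESR1 -0.14 and PRLR -0.26. With quantile normalization: PAEP -0.052 and PLIN2 -0.16. With normexp: PRLR -0.0015. FASN was 0.73 without the day +30 array of yak 3. Over the fits without the day +30 array of yak 3 or without 1 yak the differences ranged from -0.49 to 0.91 for ADIPOQ, -0.18 to 0.14 for COL1A1, -0.24 to 0.068 for COL3A1, -0.58 to 0.76 for FASN, -0.021 to 1.28 for PAEP, -0.053 to 0.84 for PGR, -0.38 to 0.60 for PLIN2, -0.19 to 0.22 for PRLR and -0.69 to 0.24 for SREBF1. The cause was not tested.

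4 animals, 1 slide a day, day labels that differ between the records and a cattle array on yak RNA limit these values, and dim arrays limit those near background.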
